A study of Mus musculus with 11 samples.

Results

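The 8 genes described here are 4 fibroblast growth factor (FGF) ligands, Fgf3, Fgf8, Fgf10 and Fgf20, and 4 receptor genes, Fgfr1, Fgfr2, Fgfr3 and Fgfrl1. They were chosen by name, as listed FGF genes of the developing organ of Corti, with earlier results of these data known. All 8 were listed at every age, among 20504 (E14), 21635 (E16), 23137 (P1) and 21500 (P7) genes. The study took single cells from the floor of the cochlear duct of untreated wildtype CD1 mice, an outbred stock, by droplet capture and 3′ end counting of unique molecular identifiers (UMIs). It holds 2 libraries at E14 (embryonic day 14), 3 at E16, 4 at P1 (postnatal day 1) and 2 at P7. Each library was a separate collection that pooled the cochleae of several animals of either sex, so neither the animals nor their sex can be told apart within a library. The age groups share stock, genotype and tissue, and differ in age and in the day of collection, which cannot be told apart.

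FGF ligands bind receptor tyrosine kinases at the cell surface together with heparan sulfate chains, and the bound receptors signal through adaptors and the MAP kinase cascade to ETS transcription factors and to inhibitors that feed back on the pathway. Fgfr1, Fgfr2 and Fgfr3 encode such kinases, while the protein of Fgfrl1 binds ligand but has no kinase domain. In the developing cochlea Fgf20 and Fgfr1 are known for the differentiation of the sensory epithelium, Fgf8 from inner hair cells and Fgfr3 for the pillar cells beside them, and Fgf3 and Fgf10 for the growth of the otocyst and the duct. The sensory epithelium holds inner and outer hair cells (IHCs and OHCs) among supporting cells (SCs). From the medial to the lateral side these SCs are inner phalangeal cells, inner pillar cells (IPCs), outer pillar cells, Deiters' cells (DCs) and Hensen's cells. No class was named for the outer pillar cells, and which of the classes or unnamed clusters hold them was not tested. Kölliker's organ (KO) and the interdental cells lie on the medial side of the epithelium.

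Levels are UMI counts per 1000000 UMIs of a cell (CPM). Each library gives the mean over its cells of a class, and the text gives the mean ± SD of the libraries. They were not divided by transcript length, so they compare cell classes and ages for 1 gene and not one gene with another. Counting at the 3′ end also merges the splice forms of a receptor that differ in ligand binding. Differences are on the log2(CPM + 10) scale with a standard error (SE), which understates changes of low genes, 1 pair stands for both classes in 1 library, and adjusted p values are those of limma after Benjamini-Hochberg adjustment over all genes tested. The 11 libraries held 1247 to 5598 cells each, 30634 in all, with 3828399 to 23523802 UMIs in total and a median of 2478 to 5647.5 UMIs per cell. Between 1 and 36 cell barcodes were shared by any 2 libraries. No doublet caller was run, and 2440 cells held more than 3000 genes. The classes are clusters named by the markers they resemble, and the clusters were made without the 8 genes and without 86 other genes of the FGF pathway. Hs3st1, of those 86, was also among the markers that named the lateral duct class. A class name below stands for cells like that type. The named classes held 84.0% of E14 cells, 92.3% of E16 cells, 65.2% of P1 cells and 21.4% of P7 cells, and the unnamed cells were kept in the values for all epithelial cells. The marker check of the OHC class was mixed at the early ages. Ikzf2, a regulator of OHC identity, averaged 4.56 CPM at E16 and 1.80 CPM at P1, below the 20.8 and 17.7 CPM over all cells. Insm1 averaged 109 and 60.6 CPM there, against 9.11 and 4.03 CPM over all cells. Both E16 clusters of the OHC class, of 263 and 242 cells, had 0 OHC markers among their 10 leading genes. At P1 a cluster of 416 cells had 0 and another of 452 cells had 1.

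The genes lie on 5 chromosomes of GRCm38 in the GENCODE vM21 annotation. Fgf3 lies at chr7:144838083-144844436 on the plus strand, Fgf8 at chr19:45736798-45742915 on the minus strand, Fgf10 at chr13:118669791-118792115 on the plus strand and Fgf20 at chr8:40279166-40308331 on the minus strand. Fgfr1 lies at chr8:25513654-25575718 on the plus strand, Fgfr2 at chr7:130162451-133123350 on the minus strand, and Fgfr3 and Fgfrl1 both lie on the plus strand of chromosome 5, at chr5:33721674-33737068 and chr5:108692382-108706924. Promoters of 250 bases before to 50 bases after a RefSeq start were matched for Fgf3, Fgf10, Fgfr2, Fgfr3 and Fgfrl1. Those of Fgf3, Fgfr3 and Fgfrl1 are printed 5′ to 3′ on the gene's strand, because Fgf3 divided the row 3 DCs from the other DCs and because Fgfr3 and Fgfrl1 were the pair whose levels followed each other most closely. Capitals mark the E-box CANNTG, the core bound by basic helix-loop-helix factors.
Fgf3 promoter, chr7:144838362-144838661: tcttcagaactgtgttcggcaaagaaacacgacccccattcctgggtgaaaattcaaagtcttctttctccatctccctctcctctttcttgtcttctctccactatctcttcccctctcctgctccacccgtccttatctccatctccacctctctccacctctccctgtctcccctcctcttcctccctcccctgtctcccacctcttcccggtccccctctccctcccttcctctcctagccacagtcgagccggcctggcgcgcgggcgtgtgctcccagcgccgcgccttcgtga
Fgfr3 promoter, chr5:33721474-33721773: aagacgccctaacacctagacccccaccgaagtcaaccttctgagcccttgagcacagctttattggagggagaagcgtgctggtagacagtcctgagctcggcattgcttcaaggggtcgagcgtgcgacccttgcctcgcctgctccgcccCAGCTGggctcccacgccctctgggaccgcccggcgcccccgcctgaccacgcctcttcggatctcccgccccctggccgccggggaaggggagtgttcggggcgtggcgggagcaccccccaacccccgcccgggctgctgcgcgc
Fgfrl1 promoter, chr5:108693979-108694278: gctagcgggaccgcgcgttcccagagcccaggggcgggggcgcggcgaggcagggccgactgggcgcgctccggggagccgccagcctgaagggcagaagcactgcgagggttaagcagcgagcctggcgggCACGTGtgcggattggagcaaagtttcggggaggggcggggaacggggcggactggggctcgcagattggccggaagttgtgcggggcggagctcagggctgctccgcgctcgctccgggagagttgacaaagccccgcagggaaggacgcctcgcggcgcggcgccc
The Fgf3 window held 0 E-boxes on either strand, the Fgfr3 window printed held 1 and the Fgfrl1 window held 1. The window of another RefSeq start of Fgfr3, at chr5:33722056-33722355, held 0 and is not printed. Of 32851 promoters of the same length, 72.3% held at least 1 E-box. The ETS core CCGGAA, searched on both strands, occurred once in the Fgfrl1 window and in 14.9% of all promoters, and it was not in the Fgf3 window or in either Fgfr3 window. These matches are letters in a window and do not show binding.

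Fgf8, a ligand, was found mainly in hair cells. The hair cell class held 86.7% of its UMIs at E14, the IHCs held 64.9% and the OHCs 29.7% at E16, and the IHCs held 89.9% at P1 and 97.1% at P7. At E14 no split of the hair cell class into IHCs and OHCs was tried here, although the study names both at that age. The Fgf8 level was 370 and 380 CPM in the 2 libraries of the hair cell class, 375 ± 6.89 CPM (SD, n = 2), and 30 of 61 hair cells held a UMI. The next class, the prosensory cells outside the lateral group, held 5.27 ± 7.45 CPM. At E16 the IHCs of the 3 libraries gave 1051, 1032 and 853 CPM, and the OHCs gave 160, 52.6 and 107 CPM. At P1 the IHCs gave 1785, 1026, 1130 and 1503 CPM and the OHCs 23.9, 5.36, 39.9 and 29.5 CPM in the 4 libraries. The lowest IHC library stood above the highest OHC library at both ages, without overlap. At P7 the IHCs gave 802 and 826 CPM, and no Fgf8 UMI was found in 145 OHCs.

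The IHC level of Fgf8 exceeded the OHC level by 3.19 on the log2 scale at E16 (SE 0.23, limma's adjusted p = 4.76e-17, in the same direction in 3 of 3 libraries) and by 5.39 at P1 (SE 0.15, limma's adjusted p = 1.66e-32, higher in 4 of 4 pairs). At P7 the fitted difference was 6.36 (SE 0.32, limma's adjusted p = 4.39e-84), from 2 libraries, with the spread between them taken wholly from the trend over the other genes. Against a floor of 3 UMIs over all P7 OHCs, or 3.11 CPM, the IHC mean was 261-fold higher. Such floors, here and below, pool the cells of the libraries and leave out the spread between libraries. With cells taken as independent, 0 of 145 OHCs allows a share of up to 2.07% of cells with a UMI. The difference itself widened with age, by 2.20 from E16 to P1 (SE 0.35, limma's adjusted p = 0.00331, where 1.06% of all genes changed), by 0.97 from P1 to P7 (SE 0.31, limma's adjusted p = 0.0385, where 11.3% changed) and by 3.17 from E16 to P7 (SE 0.41, limma's adjusted p = 1e-04, where 2.68% changed). The IHC level of Fgf8 did not pass the test between ages, at 0.44 from E16 to P1 (limma's adjusted p = 0.317) and -0.70 from P1 to P7 (limma's adjusted p = 0.176). In OHCs it fell by 1.76 from E16 to P1 (SE 0.39, limma's adjusted p = 0.00416), in a comparison where 18.5% of genes were called and 3 of the 4 tested FGF genes fell, and this call held without each library in turn. From P1 to P7, where 26.2% of genes were called, the P1 OHC mean of Fgf8 was 7.93-fold above the P7 floor. The lowest P1 library, at 5.36 CPM, stood closer to that floor. The floor also takes no account of UMIs that lie together in few cells. At P1, 18 of 868 OHCs held Fgf8, a share that the 2.07% allowed at P7 does not exclude. A smaller share of OHCs with Fgf8 at P7 was therefore not shown. The fitted fall of 1.67 was no longer called without either P7 library.

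**Figure D1:**
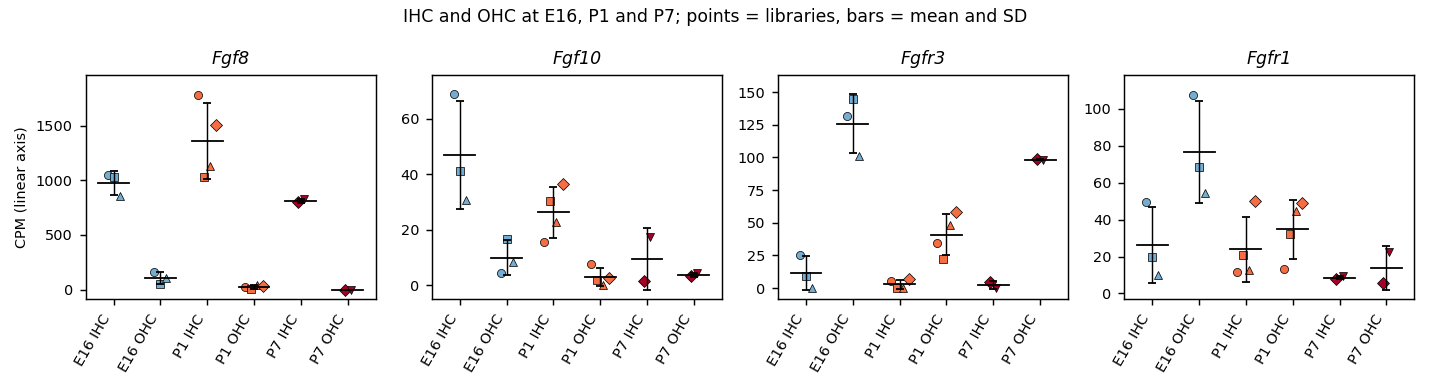
Levels of Fgf8, Fgf10, Fgfr3 and Fgfr1 in IHCs and OHCs at E16, P1 and P7 on a linear axis in CPM, where each point is 1 library and the bars are the mean and SD. Fgf8 sits between 802 and 1785 CPM in every IHC library and at or below 160 CPM in every OHC library, while Fgfr3 is higher in the OHC libraries at each age.

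The OHC signal of Fgf8 came from few cells. At E16, 50 of 505 OHCs (9.90%) held an Fgf8 UMI, against 88 of 95 IHCs and 4 of 3288 medial KO cells (0.122%), at median depths of 3338, 3923 and 2444 UMIs per cell. At P1 all 152 Fgf8 UMIs of the OHC class lay in 18 of 868 cells (2.07%), which held 8.44 UMIs each, close to the 10.7 UMIs of each positive IHC. The share of cells with a UMI was 98.3% in P1 IHCs and 0.247% in medial KO cells. The E16 OHCs with Fgf8 held 191 CPM summed over 6 IHC marker genes, against 45.3 CPM in OHCs without Fgf8 and 620 CPM in IHCs. Summed over 9 OHC marker genes, they held 52.5 CPM against 354 CPM in the other OHCs and 90.7 CPM in IHCs. At P1 the 18 cells held 334 CPM of IHC markers, against 385 CPM in other OHCs and 2693 CPM in IHCs, and 88.5 CPM of OHC markers, against 725 CPM in other OHCs. The cells with Fgf8 thus carried less of the OHC markers than the rest of their class at both ages. Leaving out OHCs with UMIs of 2 or more IHC markers, a choice made after the values were seen, gave 106 ± 52.9 CPM of Fgf8 at E16 and 23.5 ± 18.4 CPM at P1. That step took away few of the cells with Fgf8, since 49 of the 50 and 13 of the 18 remained, and the median E16 IHC itself held 1 of these markers.

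Fgf20, a ligand of the early prosensory domain, was highest, among the named classes, in the prosensory cells outside the lateral group. At E14 these cells, marked by Sox2, Isl1 and Tectb, held 162 and 150 CPM in the 2 libraries, and the lateral prosensory cells, marked by Prox1, Bmp2 and Ngfr, held 62.9 and 28.7 CPM. The groups did not overlap, and the lateral level was lower by the log2 difference of -1.64 (SE 0.25, limma's adjusted p = 0.0205, lower in 2 of 2 pairs). Named classes held 62.4% of the Fgf20 UMIs at E14, and of the 184 others 176 lay in a cluster of 197 cells without a name. That cluster scored highest on the markers of the non-lateral prosensory cells and then on those of the lateral duct (1.06 and 0.747), had 2.28 times the median depth of all E14 cells, and held 78.7 and 129 CPM of Fgf20. With it added to the non-lateral cells, a choice made after the values were seen, they held 132 and 143 CPM and the lateral difference was -1.47 (SE 0.22, limma's adjusted p = 5.69e-09, where 4.81% of all genes were called and the spread again came wholly from the trend over the other genes). Fgfr3 and Fgfr1 were called there too, at 3.31 and 0.90, and Fgf3 was called as well, at 1.20. A UMI of Fgf20 was found in 75 of 363 cells (20.7%) of the first group and in 26 of 190 (13.7%) of the lateral group, against 3 of 1108 medial KO cells (0.271%), at median depths of 2444, 3835 and 2699.5 UMIs. At E16 Fgf20 was again highest in the non-lateral prosensory cells, at 302, 128 and 196 CPM, and was also high in inner phalangeal cells, at 204, 83.7 and 78.1 CPM. These neighbours in the order of levels differed by less than their spread, and the highest value came from 13 cells. With cells gated one by one the inner phalangeal cells were first, on 7 and 10 cells in the 2 libraries with enough of them. The lateral prosensory cells at E16 held 0, 0 and 30.7 CPM. The study uses Fgf20 and Fgfr3 as labels of medial and lateral prosensory cells, and neither gene was used here to make the classes, although the marker lists were drawn largely from genes the study found on these same libraries.

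At P1 the inner phalangeal cells held 99.4, 16.1, 61.7 and 107 CPM (71.2 ± 41.8 CPM), with a UMI in 55 of 200 cells, and every other named class lay at or below 12.3 CPM. At P7 no Fgf20 UMI was found in any named class, and all 42 UMIs lay in unnamed cells. Over all epithelial cells Fgf20 fell by 0.84 from E14 to E16 (limma's adjusted p = 0.0278, where 19.4% of genes were called). All genes together shifted by -0.16 on the log2 scale between these ages, and after centring on that shift the fall of 0.70 was no longer called. It was not called either without E14 replicate 1 (-0.86) or 2 (-0.83) or without E16 replicate 1 (-0.89) or 2 (-0.68). In values over all epithelial cells, fewer cells of a type and less RNA per cell cannot be told apart.

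Fgf3, a ligand of otic development, was highest in hair cells at E14, in inner phalangeal cells at E16, and in row 3 DCs and inner phalangeal cells at P1. At E14 the hair cells held 41.4 and 65.6 CPM, with a UMI in 16 of 61 cells, and the lateral KO held 27.1 ± 6.56 CPM. That first place changed with the cells used, since 21 of the 61 hair cells held more than 3000 genes and without such cells the lateral KO was highest. At E16 the inner phalangeal cells held 389, 252 and 336 CPM of Fgf3, and the next class, the IPCs, held 42.5 ± 19.9 CPM. At P1 Fgf3 stood at nearly the same level in 2 classes that do not touch each other, the inner phalangeal cells beside the IHC and the row 3 DCs beside the outermost OHC. The row 3 DCs held 297, 202, 239 and 378 CPM, and the inner phalangeal cells held 133, 215, 354 and 406 CPM. These 2 ranges overlapped. The DCs outside row 3 held 9.17 ± 6.18 CPM and the lateral KO 0.44 ± 0.305 CPM, each below every library of the 2 high classes. The lateral KO widened as described below held 5.50 ± 4.49 CPM, also below all of them.

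Within the DCs, Fgf3 was higher in row 3 by 3.95 on the log2 scale (SE 0.32, limma's adjusted p = 2.30e-08, higher in 4 of 4 pairs), and it was the only called gene of the 5 FGF genes tested, where 2.40% of all genes were called. The study calls Fgf3 and Lgr5 known markers of row 3 DCs and describes them as restricted to those cells. Here the clusters were made without Fgf3, but Lgr5 was a marker of the row 3 class. The marker lists came largely from the study, so the row 3 difference is not independent of its labels. Among the classes named here Fgf3 was not restricted to row 3 DCs, given the inner phalangeal level above. The named DCs leave out a cluster of 249 cells without a name that scored alike on the lists of both DC classes (0.236 and 0.218), and its cells held 91.4, 37.4, 26.2 and 98.0 CPM of Fgf3, with a UMI in 45 (18.1%). With these cells counted among the DCs outside row 3, a choice made after the values were seen, the DCs held 37.7, 20.1, 20.3 and 64.6 CPM, still below every row 3 library, and the difference was 2.73 (SE 0.25, limma's adjusted p = 1.12e-09, where 2.11% of genes were called). Fgfr1, Fgfr3, Fgfrl1 and Fgf10 did not pass the test between the named classes, with log2 differences of 0.64, 0.24, 0.55 and 0.37. A UMI of Fgf3 was found in 64 of 92 row 3 DCs (69.6%) and in 9 of 227 other DCs (3.96%), against 4 of 4856 medial KO cells (0.0824%), at median depths of 6403.5, 5202 and 4336 UMIs. When cells were gated one by one on their markers in place of clusters, the row 3 difference of Fgf3 was 1.55 and was not called, on 25, 6, 8 and 23 row 3 DCs in the 4 libraries. By P7 the row 3 DCs held 40.5 CPM in 1 library and 0 in the other, a fall of 3.65 from P1 (SE 0.56, limma's adjusted p = 0.000148, where 2.58% of genes were called). That fall was no longer called without P7 replicate 5 (-2.48). The IPCs held 48.4, 41.1, 47.6 and 108 CPM of Fgf3 at P1 and no UMI in 46 cells at P7, and the fitted fall of 2.75 (SE 0.48, limma's adjusted p = 0.000358) was called without each library in turn. The P1 mean was 9.67-fold above the floor of 3 UMIs over those 46 cells. With an unnamed cluster of 157 cells that scored highest on the IPC list, where 1 cell held Fgf3, the P1 IPCs held 33.6 ± 18.5 CPM. That widened class was not tested against P7.

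Inner phalangeal cells were compared with the lateral KO class at P1. That class was made of 3 clusters of 934, 350 and 85 cells, none of which had a lateral KO marker among its 10 leading genes, and the cells of the second had 0.433 of the median depth of all P1 cells. Another 3 clusters that scored highest on the lateral KO markers, of 1347, 1021 and 720 cells, took no name, and the last scored nearly as high on the inner phalangeal markers (1.17 and 1.13). Which of these cells lie beside the IHC was not tested. On the inner phalangeal side, a cluster of 92 cells that scored highest on the inner phalangeal list (0.304) and was led by Matn4 took no name. It had 0.555 of the median depth of all P1 cells, and it was not added to the inner phalangeal class in any comparison. Of the 5 FGF genes tested, 3 were called, Fgf3 and Fgf20 higher and Fgfr1 lower in inner phalangeal cells, where 19.4% of all genes were called. Fgf3 was higher by 4.66 (SE 0.25, limma's adjusted p = 4.29e-14, in 4 of 4 libraries) and Fgf20 by 2.72 (SE 0.32, limma's adjusted p = 1.45e-07, in 4 of 4 libraries). Fgfr1 was 7.02 ± 10.7 CPM in inner phalangeal cells and 158 ± 65.8 CPM in the lateral KO, a log2 difference of -3.40 (SE 0.26, limma's adjusted p = 6.50e-11, lower in 4 of 4 pairs). Of the 12 named P1 classes, the inner phalangeal cells had the lowest mean level of Fgfr1. Fgfrl1 was higher in them by 0.54 in 4 of 4 libraries, which did not pass the test (limma's adjusted p = 0.0511). With the lateral KO widened to all 6 clusters, a choice made after the values were seen, Fgf3, Fgf20 and Fgfr1 were still called, at 4.13, 2.53 and -3.26, and Fgfrl1 was called as well, at 0.75 (SE 0.19, limma's adjusted p = 0.00399, where 19.7% of all genes were called). At E16 the level of Fgfr1 in inner phalangeal cells was 32.1 ± 16.4 CPM, and the change of the Fgfr1 difference from E16 to P1, -2.18, did not pass the test (limma's adjusted p = 0.106).

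Fgf10, a ligand best known for epithelial growth, was higher at E16 than at E14 or P1 in both KO classes. In the lateral KO its level was 55.3 and 78.4 CPM at E14, 176, 184 and 124 CPM at E16, and 72.7, 41.5, 53.0 and 43.9 CPM at P1. The E16 libraries stood above all libraries of the other ages. In the medial KO Fgf10 was 28.9 and 27.5 CPM at E14, 84.8, 66.5 and 61.5 CPM at E16, and 24.4, 14.8, 13.5 and 15.7 CPM at P1, again without overlap between E16 and either other age. The fall from E16 to P1 was 1.46 in the lateral KO (SE 0.27, limma's adjusted p = 0.00276, where 6.72% of genes were called) and 1.58 in the medial KO (SE 0.22, limma's adjusted p = 0.00205, where 5.42% were called), and both calls held without each library in turn. The lateral KO class was 1 cluster of 680 cells at E16, led by genes that at P1 also led clusters without a name, so the classes compared may hold different cells. With the 6 clusters of the widened P1 class, 4457 cells in all, Fgf10 was at 77.9, 45.5, 49.1 and 44.1 CPM, again below every E16 library, and the fall was 1.43 (SE 0.26, limma's adjusted p = 0.00369, where 7.23% of genes were called). Over all epithelial cells, named or not, Fgf10 fell by 0.80 from E16 to P1 (SE 0.20, limma's adjusted p = 0.0391, where 7.02% of genes were called). That call was lost with no filter (-0.80), after centring on the shift of all genes (-0.80), with a replicate block (-0.74), and without P1 replicate 2 (-0.75) or 3 (-0.75) or E16 replicate 1 (-0.78) or 2 (-0.75). The rise from E14 to E16 was 1.15 in the lateral KO (SE 0.29, limma's adjusted p = 0.0351, where 3.2% of genes were called) and 1.07 in the medial KO (SE 0.19, limma's adjusted p = 0.00870, where 11.6% were called). The first rise was not called without either E14 library (0.94 and 1.37), without E16 replicate 1 or 2 (1.08 and 1.05), with no filter (1.15) or with summed UMIs (1.14). The medial one was not called without either E14 library (1.10 and 1.05).

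Outside the KO, Fgf10 was at 131 ± 45.5 CPM in inner phalangeal cells at E16 and 66.4 ± 18.4 CPM at P1, levels that did not differ from the lateral KO at P1 beyond the spread (0.28, limma's adjusted p = 0.441). It was also higher in IHCs than in OHCs at P1. At P1 the IHCs held 15.5, 30.5, 22.9 and 36.4 CPM of Fgf10 and the OHCs 3.10 ± 3.19 CPM, a difference of 1.47 (SE 0.28, limma's adjusted p = 7.12e-05, higher in 4 of 4 pairs). That call was lost when cells with more than 3000 genes were left out (1.17), and 84 of 179 IHCs and 288 of 868 OHCs were such cells. At E16 the Fgf10 difference of 1.51 did not pass the test (limma's adjusted p = 0.141). At P7 the highest class was the row 3 DCs, at 63.8 and 41.0 CPM, and 46 IPCs held no UMI. The P1 mean of the IPCs, 40.0 ± 16.0 CPM, was 6.30-fold above the floor of 3 UMIs over these 46 cells, and the widened IPCs held 29.7 ± 10.6 CPM at P1.

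**Figure D2:**
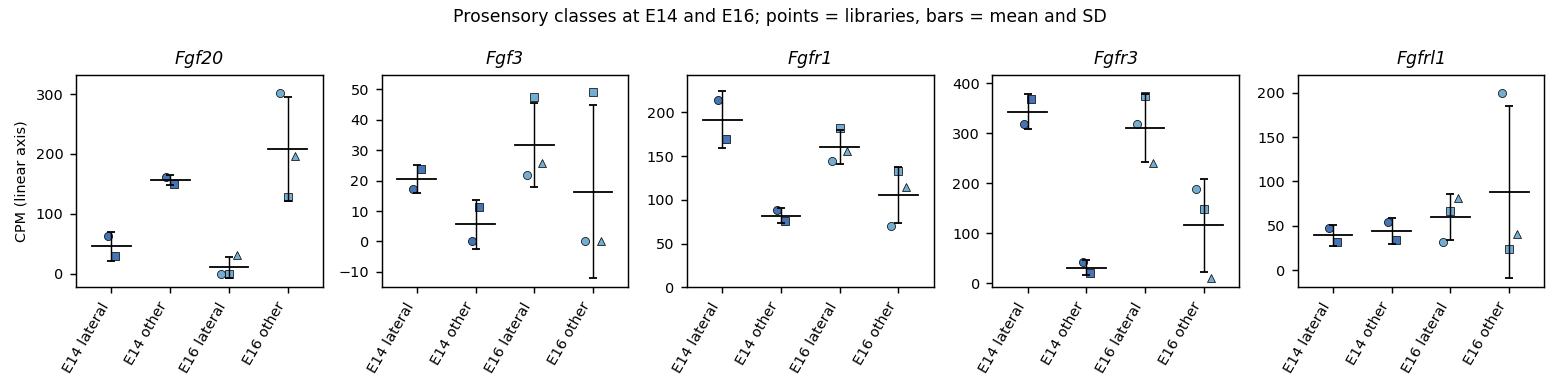
Levels of Fgf20, Fgf3, Fgfr1, Fgfr3 and Fgfrl1 in lateral and other prosensory cells at E14 and E16 on a linear axis in CPM, where each point is 1 library and the bars are the mean and SD. Fgf20 is higher in the other prosensory cells (162 and 150 CPM at E14), and Fgfr3 is higher in the lateral ones (318 and 368 CPM at E14).

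Fgfr3, the receptor kinase of the pillar and outer hair cell side of the epithelium, was high in the lateral prosensory cells at E14. These cells held 318 and 368 CPM, and the other prosensory cells held 41.9 and 19.9 CPM, without overlap. The difference was 3.16 (SE 0.26, limma's adjusted p = 6.22e-04, higher in 2 of 2 pairs), and a UMI was found in 136 of 190 lateral cells (71.6%) and 23 of 363 others (6.34%), against 8 of 1108 medial KO cells (0.722%). Of the 6 FGF genes tested between the 2 prosensory groups, 3 were called, Fgfr3 and Fgfr1 higher and Fgf20 lower in the lateral cells, where 1.19% of all genes were called. Hair cells at E14 also held Fgfr3, at 300 and 142 CPM. At E16 the change of the lateral difference was -1.28 and did not pass the test (limma's adjusted p = 0.994), with 319, 375 and 239 CPM in lateral cells against 189, 148 and 10.0 CPM in the other prosensory cells, of which the 3 libraries held 13, 22 and 73.

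From E16 on the IPCs had the highest mean level of Fgfr3, and at P1 and P7 the DCs followed. At E16 the lateral prosensory cells stood next to the IPCs within the spread. The IPCs held 462, 287 and 335 CPM at E16, 455, 374, 563 and 299 CPM at P1, and 1140 and 835 CPM at P7. The P7 libraries stood above all P1 libraries, a rise of 1.23 (SE 0.31, limma's adjusted p = 0.0115, where 9.60% of genes were called and 4 of the 5 tested FGF genes changed), which was not called without either P7 library (1.00 and 1.45). All 46 P7 IPCs held a UMI of Fgfr3, and they held 50% of its UMIs among 1.36% of the cells, against 9 of 258 mesenchymal cells (3.49%). Their median depth was 11408 UMIs and 32 of them held more than 3000 genes. At P1 the row 3 DCs held 446, 209, 436 and 428 CPM of Fgfr3 and the other DCs 266, 308, 335 and 323 CPM, ranges that overlapped each other and that of the IPCs. The difference between IPCs and all DCs, 0.32, did not pass the test (limma's adjusted p = 0.219), and it was called at 0.51 without P1 replicate 4.

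Among hair cells Fgfr3 took the side opposite to Fgf8. OHCs held 131, 145 and 101 CPM at E16, 34.6, 22.6, 48.6 and 57.9 CPM at P1, and 98.6 and 98.0 CPM at P7. IHCs held 11.6 ± 12.9, 2.96 ± 3.49 and 2.22 ± 3.14 CPM of Fgfr3 at these ages, below every OHC library. The IHC minus OHC difference was -2.82 at E16 (SE 0.47, limma's adjusted p = 2.54e-05, lower in 3 of 3 pairs), -1.96 at P1 (SE 0.27, limma's adjusted p = 9.46e-08, lower in 4 of 4) and -3.17 at P7 (SE 0.43, limma's adjusted p = 1.41e-11, lower in 2 of 2). With cells gated one by one, the E16 difference was -1.60 and was not called. Among the FGF genes tested in this comparison 2 of 6 were called at E16, 3 of 5 at P1 and 2 of 4 at P7, where 2.91%, 14.2% and 13.7% of all genes were called. The change of the Fgfr3 difference did not pass the test between any pair of these ages (0.86, -1.21 and -0.35, limma's adjusted p = 0.470, 0.0831 and 0.895). The OHC level itself fell by 1.46 from E16 to P1 (SE 0.28, limma's adjusted p = 0.00172), a call that held without each library, and rose by 1.14 to P7 (SE 0.33, limma's adjusted p = 0.0168), which was not called without either P7 library or without P1 replicate 2 (0.95).

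Fgfr1, the receptor kinase required in the prosensory domain, was found in every named class at E14, at 60.3 to 192 CPM. There the lateral prosensory cells held 215 and 169 CPM and the other prosensory cells 87.9 and 75.9 CPM, a difference of 1.13 (SE 0.18, limma's adjusted p = 0.0261, higher in 2 of 2 pairs). Of 26 lateral cells with Fgf20, 13 also held Fgfr1 (50%, against 51.6% of all 190 cells) and 15 held Fgfr3 (57.7%, against 71.6%). Of 75 other prosensory cells with Fgf20, 9 held Fgfr1 (12%, against 16.0% of all 363) and 3 held Fgfr3 (4%, against 6.34%). At E16 Fgfr1 went the other way, in 5 of 11 lateral cells with Fgf20 (45.5%, against 27.9% of all 505) and 7 of 29 others (24.1%, against 20.4% of all 108). Fgfr3 was in 4 of the 11 (36.4%, against 48.1%) and 0 of the 29 (against 8.33%). All 11 lateral cells came from replicate 3. These shares rest on few UMIs per cell and are a description.

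By P1 Fgfr1 was highest in interdental cells, at 186, 273, 306 and 341 CPM. The row 3 DCs followed at 83.9, 226, 207 and 378 CPM and the medial KO at 87.9, 182, 181 and 251 CPM, and these neighbours overlapped. Replicate 1 was the lowest library in 9 of the 11 P1 classes with at least 10 CPM of Fgfr1, and replicate 4 was the highest in 8 of the 11. In IPCs Fgfr1 was 26.2, 23.1, 79.0 and 55.6 CPM, against 89.6, 170, 149 and 215 CPM over all DCs. The IPC level was lower within each library, by the log2 difference of -1.63 (SE 0.24, limma's adjusted p = 1.86e-05, lower in 4 of 4 pairs), and Fgfr1 was the 1 gene called of the 5 tested, where 9.35% of all genes were called. With the DCs and IPCs widened to the clusters without a name that scored highest on their lists, 249 and 157 cells, the Fgfr1 difference was -1.78 (SE 0.18, limma's adjusted p = 8.93e-07, where 7.53% of all genes were called), and Fgf3 was called as well, lower in the IPCs by the log2 difference of -0.96.

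Fgfr1 was lower at P7. Over all epithelial cells its level was 88.6 and 87.1 CPM at E14, 102, 107 and 98.2 CPM at E16, 78.0, 153, 157 and 224 CPM at P1, and 18.9 and 19.8 CPM at P7. The P7 libraries stood below all others, with a fall from P1 of 2.39 (SE 0.34, limma's adjusted p = 0.00134, where 17.8% of genes were called) that held without each library in turn. Within classes, Fgfr1 fell from P1 to P7 by 2.02 in DCs outside row 3 (SE 0.40, limma's adjusted p = 0.00380, where 5.55% of genes were called) and by 1.82 in IPCs (SE 0.52, limma's adjusted p = 0.0244). The fall in DCs was not called without P7 replicate 4 (-1.66), and that in IPCs was not called without either P7 library or without P1 replicate 3 or 4 (-1.27, -2.36, -1.55 and -1.70). No fall of Fgfr1 was called in row 3 DCs, IHCs or OHCs in the main fit. Without P1 replicate 1 it was called in row 3 DCs (-1.80) and OHCs (-1.20), and with summed UMIs in OHCs (-1.22). From E16 to P1 the rise of Fgfr1 passed the test only when P1 replicate 1 was left out, at 1.03 in the lateral KO, 0.96 in the medial KO, 0.84 in interdental cells and 0.72 over all epithelial cells. In OHCs Fgfr1 was instead called lower at P1, a call lost in the alternatives given with Fgf8 above. The mesenchymal cells captured at P7 held 258 and 305 CPM of Fgfr1, above every epithelial class of that age.

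Fgfr2, the receptor kinase of the non-sensory duct, was highest at E14 and E16, among the named classes, in the lateral duct and Oc90 cells. The lateral duct cells held 93.4 and 104 CPM at E14, 146, 129 and 64.4 CPM at E16, and 32.1, 24.6, 80.7 and 124 CPM at P1. The Oc90 cells, which carry the gene of an otolith protein made by the cochlear roof, held 66.4 ± 17.9 CPM of Fgfr2 at E14 and 89.6 ± 19.3 CPM at E16. Every other named class lay at or below 11.6 CPM at these ages. Cells without a name averaged 63.7 CPM at E14 and 53.7 CPM at E16, where named classes held 67.2% and 75.0% of the Fgfr2 UMIs. Among them, 2 E14 clusters of 254 and 142 cells that scored highest on the Oc90 markers held 146 ± 22.0 and 106 ± 15.8 CPM, and an E16 cluster of 175 cells that scored highest on the lateral duct markers held 179 ± 56.7 CPM, means above that of every named class of their age. No Fgfr2 UMI was found in the 363 named non-lateral prosensory cells at E14, and the lateral duct mean was 31.8-fold above the floor of 3 UMIs over those cells. None was found in the P1 IPCs or DCs. At P7, where no lateral duct class was named, 70.0% of the UMIs of Fgfr2 lay in mesenchymal cells, at 36.3 ± 7.56 CPM. Over all epithelial cells Fgfr2 fell by 0.62 from E14 to E16 (SE 0.12, limma's adjusted p = 0.0206), which was no longer called after centring on the shift of all genes (-0.48), nor without E14 replicate 1 (-0.67) or 2 (-0.57) or E16 replicate 1 (-0.61) or 2 (-0.62).

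Fgfrl1, the receptor gene without a kinase domain, was spread over most classes at E14, at 10.1 to 48.0 CPM, and became highest in SCs. At P1 the row 3 DCs held 94.7, 181, 278 and 196 CPM, the IPCs 96.2, 154, 94.2 and 143 CPM, the other DCs 110, 123, 125 and 109 CPM, and the inner phalangeal cells 95.2, 95.1, 151 and 65.4 CPM. These 4 classes overlapped, and neighbours in their order differed by less than the spread. At P7 the IPCs held 192 and 176 CPM of Fgfrl1, above the 81.8 ± 6.46 CPM of the DCs. Over the 39 profiles of a class at an age, Fgfrl1 followed Fgfr3 with a Pearson correlation of 0.64, the highest of the 28 pairs of the 8 genes, and the lowest was that of Fgf10 and Fgfr2 at -0.47. The profiles share libraries, and profiles of a class at successive ages are not independent.

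**Figure D3:**
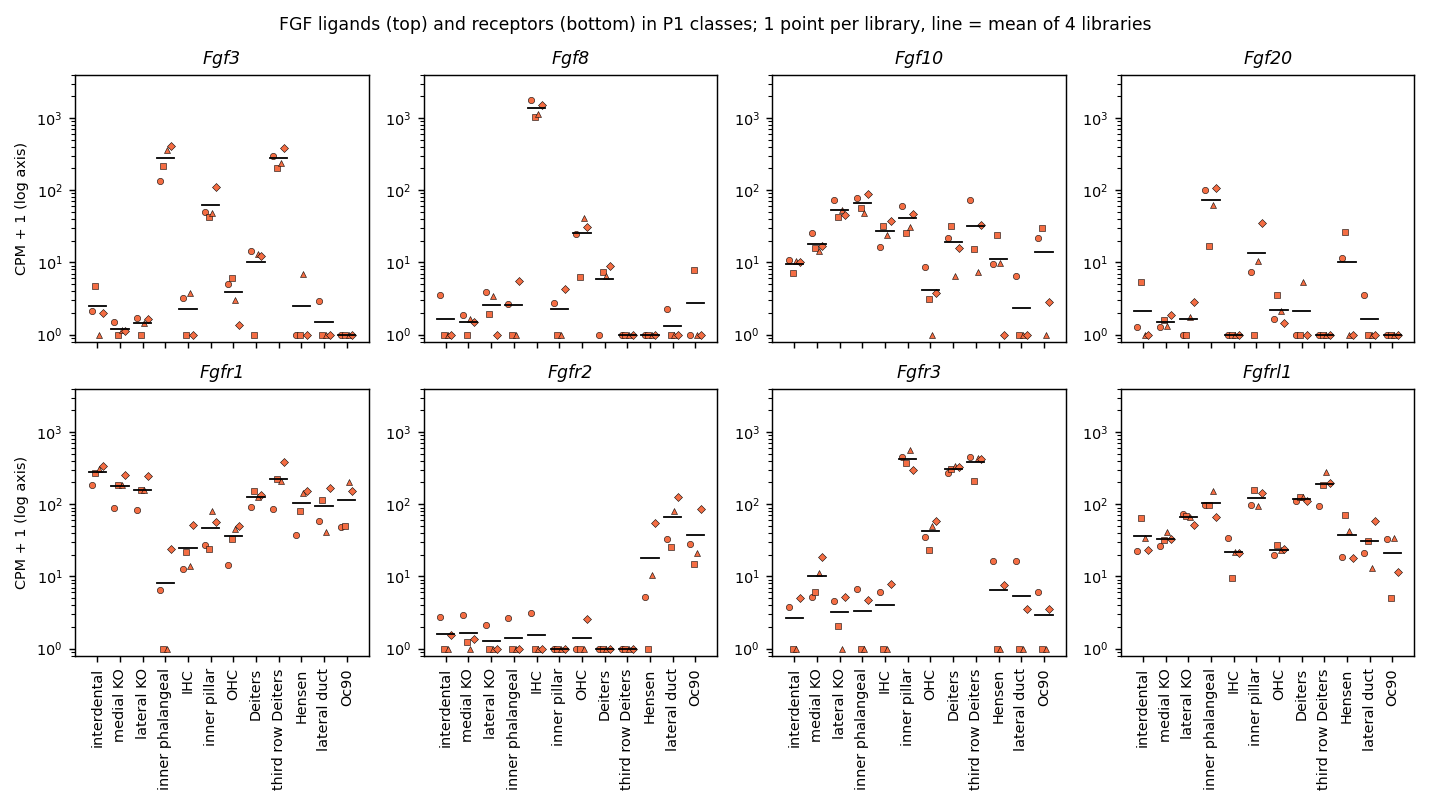
Levels of the 8 FGF genes in the named P1 classes as CPM + 1 on a log axis, where each point is 1 of 4 libraries and each line is the mean. Fgf8 stands apart in IHCs (1361 ± 349 CPM), Fgf3 in row 3 DCs and inner phalangeal cells and Fgfr3 in IPCs and DCs, while the highest means of Fgfr2, in lateral duct and Oc90 cells, have libraries that overlap those of other classes.

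The P1 hair cells (IHCs and OHCs together) were then set against the lateral SCs (IPCs and DCs), the comparison in which the study placed its hair cell and SC genes. All 6 FGF genes tested were called, 1 higher and 5 lower in hair cells, in a comparison where 56.5% of all genes were called. Fgf8 was 269 ± 79.6 CPM in hair cells and 2.59 ± 1.60 CPM in SCs, a difference of 4.44 (SE 0.20, limma's adjusted p = 6.65e-12). Fgfr3 was 34.2 ± 14.4 CPM against 363 ± 48.5 CPM (-3.13, SE 0.16, limma's adjusted p = 4.79e-11), and Fgf3 was 2.54 ± 1.70 CPM against 77.7 ± 32.7 CPM (-2.75, SE 0.24, limma's adjusted p = 3.11e-08). Fgfrl1, Fgfr1 and Fgf10 differed by -2.14, -1.57 and -1.10. The direction was the same in 4 of 4 libraries for each of the 6 genes. Fgf8 was thus the only one of these 6 that was higher in hair cells, and the ligands Fgf3 and Fgf10 stood with the receptors Fgfr1, Fgfr3 and Fgfrl1 on the SC side. Fgf8 and Fgf3 passed the filter on mean level only through the group where they were high. Their calls and sides therefore add nothing to the levels given, and the count of 6 called holds the same limit.

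**Figure D4:**
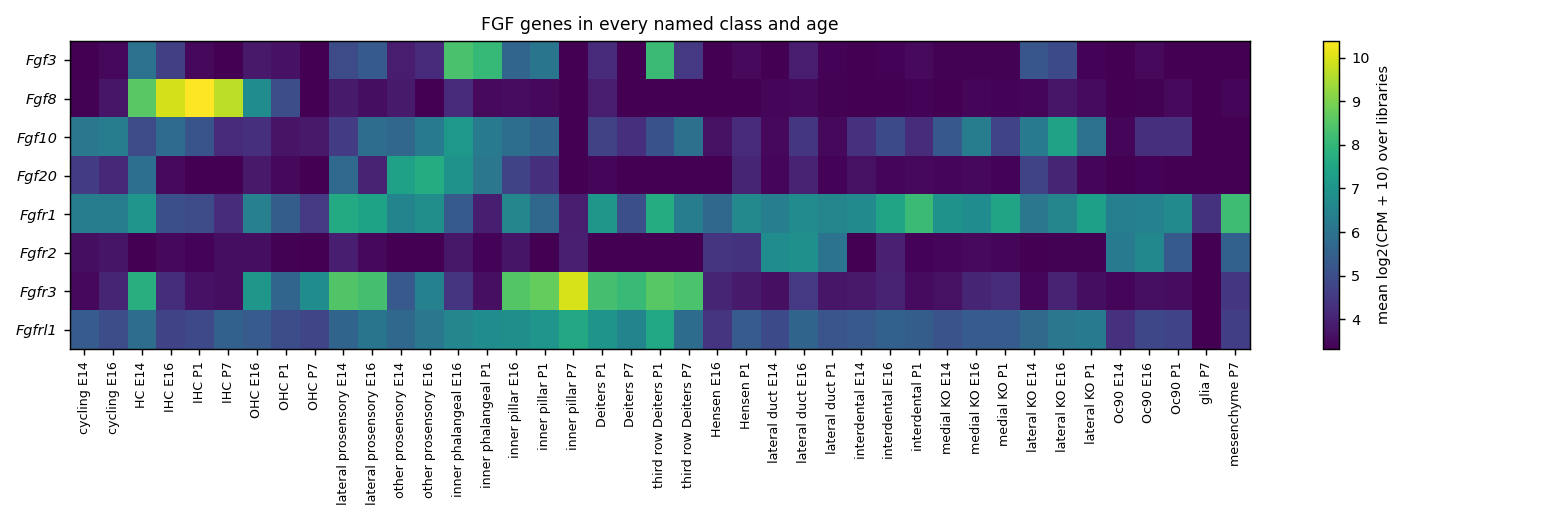
Mean levels of the 8 FGF genes in each named class at each age, as colours for the mean of log2(CPM + 10) over libraries, with classes and ages in columns and genes in rows. Among the brightest fields are Fgf8 in hair cells, Fgfr3 in IPCs and DCs, and Fgf3 in inner phalangeal cells and row 3 DCs.

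The other genes of the pathway were taken in 5 lists of 86 genes in all. These were other Fgf family genes, receptors and cofactors, heparan sulfate enzymes, adaptors and kinases, and feedback and target genes. Between P1 IPCs and DCs, 4 of the 13 feedback and target genes tested were higher in IPCs and 0 lower, where 9.35% of all genes were called and 4.44% were higher, and the median difference was 0.29 against -0.02 over all genes. Etv4, an ETS factor induced by FGF signalling, was 263 ± 76.5 CPM in IPCs and 16.2 ± 30.2 CPM in DCs (3.92, SE 0.37, limma's adjusted p = 5.68e-09). Of 9 receptors and cofactors, 4 were lower and 0 higher in IPCs (median -0.46), among them the proteoglycan genes Sdc1 (10.8 against 94.3 CPM, -2.50) and Gpc1 (28.5 against 169 CPM, -2.37). Between row 3 and other DCs, 0 of 13 feedback and target genes were called by limma, 4 were below an unadjusted p of 0.05, as were 11.5% of all genes, and the median was -0.54, against -0.01 over all genes, of which 2.40% were called. The glypican gene Gpc6 was higher in row 3 (177 against 69.3 CPM, 1.27, limma's adjusted p = 0.00721) and Gpc1 was lower (92.3 against 199 CPM, -1.19, limma's adjusted p = 0.0225).

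Between inner phalangeal cells and the lateral KO, 3 of 12 feedback and target genes were higher and 0 lower (median -0.08, against 0.07 over all genes, of which 19.4% were called and 12.1% were higher). Dusp6, a phosphatase that inhibits the ERK kinases, was 144 ± 39.0 CPM against 35.2 ± 20.4 CPM (1.84), Hs3st1, a heparan sulfate sulfotransferase gene, was 114 against 14.5 CPM (2.21), and the glypican gene Gpc3 was 2.29 against 75.4 CPM (-2.82). Counting both directions, 5 of 8 heparan sulfate enzymes (median 0.38) and 5 of 11 receptors and cofactors (median -0.38) were called. Between P1 hair cells and lateral SCs, 8 of 13 feedback and target genes were lower and 2 higher in hair cells, and 7 of 9 receptors and cofactors were lower and 0 higher. Of 9 heparan sulfate enzymes 5 were lower and 2 higher, while of 17 adaptors and kinases 2 were lower and 5 higher. The medians of the 4 lists were -0.59, -1.29, -0.67 and 0.17, against 0.08 over all genes, of which 56.5% were called, 31.3% higher and 25.1% lower. Etv4 was 0.757 ± 0.872 CPM in hair cells and 109 ± 27.5 CPM in SCs (-3.44), and Sdc4 was 14.6 against 238 CPM (-3.33). The other Fgf family genes tested, Fgf11 and Fgf21, named after their values were seen, were both higher in hair cells. Whether both encode secreted ligands was not tested. Fgf21, an endocrine ligand, also differed within them, at 3.61 ± 4.71 CPM in IHCs and 46.7 ± 8.36 CPM in OHCs at P1 (-2.11, limma's adjusted p = 9.69e-09), and in OHCs it rose from 5.96 ± 4.05 CPM at E16 (1.85, limma's adjusted p = 1.96e-04). Between the E14 prosensory groups 0 of 49 tested genes of the 5 lists were called by limma and 8 were below an unadjusted p of 0.05, as were 10.9% of all genes, with a median of -0.10 against -0.0047 over all genes, of which 1.19% were called.

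Against all other cells of its age, each class was tested in 41 comparisons, in which between 2.38% and 67.6% of all genes were called. Pooled over these comparisons, 10.6% of all tests of a gene were called higher and 12% lower. Of 240 tests of the 8 genes, 154 were called, 59 higher and 95 lower. Fgfr3 was higher in 12 of the 41 and Fgf8 in 5. Both passed the filter in many of the other tests through high classes among the other cells, so no count of their lower calls is given. Fgf3 was higher in 8, was not called in 6 and was too low to test in 27, and because it entered a test mainly through classes where it was high, no count of lower calls is given for it. The pooled counts, with the 95 lower calls among them, hold the same limit for every gene that is low in most cells. Between successive ages, 25 comparisons held 107 tests of the 8 genes, of which 20 were called. Of these, 5 were higher and 15 lower at the later age, against 3.32% and 3.72% of all tests of a gene. Fgf3 and Fgf10 in IPCs and Fgf8 in OHCs had 0 UMIs at P7 and passed the filter through P1 alone, so only a fall could be called. The 25 also include comparisons over all epithelial cells, which hold the cells of the classes. These counts therefore do not show a general fall of the 8 genes.

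**Figure D5:**
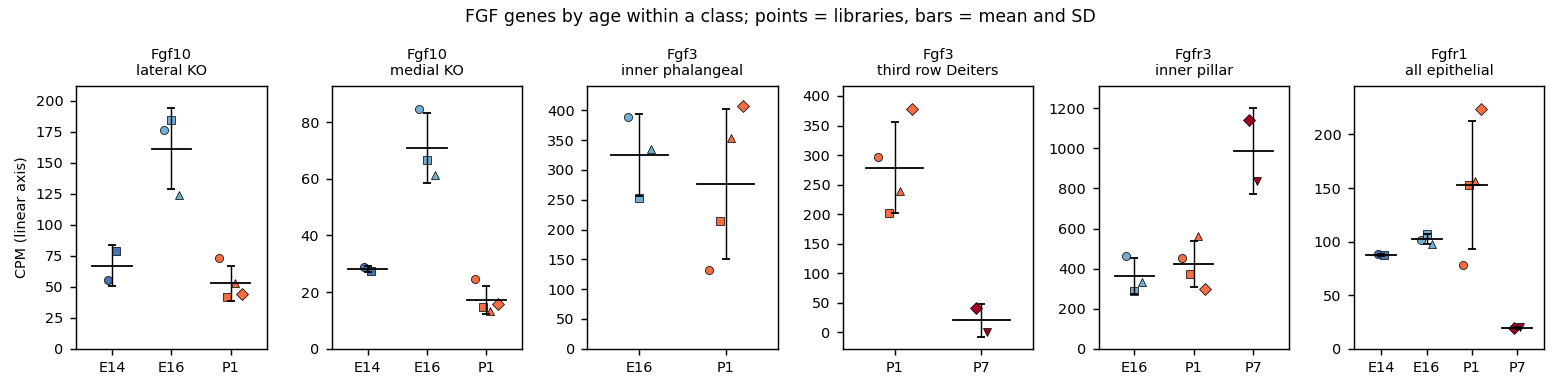
Levels of Fgf10, Fgf3, Fgfr3 and Fgfr1 by age within a class, in 6 panels with linear axes in CPM, where points are libraries and the bars are the mean and SD. Fgf10 peaks at E16 in the lateral KO (161 ± 32.7 CPM), Fgfr3 in IPCs is highest at P7 (988 ± 216 CPM) and Fgfr1 over all epithelial cells is lowest at P7 (19.4 ± 0.651 CPM).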

How the data were processed

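Per the methods, reads were aligned to mm10 with Cell Ranger 2.1.1 and processed with Seurat 2.0, and cells were filtered on genes, UMIs, mitochondrial and stress genes. The deposited values are the natural log of 1 plus a gene's share of a cell's UMIs times 10000, and dividing by the value of 1 UMI gave whole UMIs, within 2%, for 100% of values above 0. Depth per library is given with the results.

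Cells were clustered per age on 2000 variable genes, 30 principal components and 20 neighbours (Leiden, resolution 2, leidenalg 0.10.2, Python 3.11.15), without the 8 genes, the 86 pathway genes, Malat1, Xist and Tsix. At E16 and P1, cells of clusters that scored high on the prosensory, inner phalangeal, IPC or DC lists were clustered again. That second round used 1000 variable genes, 15 components, 15 neighbours and resolution 1, without the same genes, and gave these classes their names. Clusters were named from 21 marker lists, with score limits set after the clusters were seen. Scores are relative to the other clusters of the same round, so those of different rounds do not compare. Members and lists were chosen with earlier results of these data known.

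Mean CPM per class and library, for classes with at least 5 cells there, was tested as log2(CPM + 10) with limma 3.58.1 (R 4.3.3, mean trend), for genes that averaged 10 CPM or more, and p values were adjusted after Benjamini-Hochberg with a limit of 0.05. Comparisons within an age had the library as a block, since both classes came from the same libraries, and those between ages had none. Same-numbered libraries of successive ages deviated with correlations of -0.279 to 0.0865, so the numbers did not pair them. The fit was also run on simulated data, and the outcome of that run is not given here. Named pathway genes came from the up to 3 called genes of largest absolute log2 difference in a comparison, and like genes were the 3 of highest correlation among genes reaching 50 CPM in a profile. Alternatives changed the pseudocount, filter, summing, block, centring, resolution, gate, cells over 3000 genes and single libraries. The methods state more replicates than the labels list at E14 and P7, and only the libraries used here are described.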

Additional observations from a re-analysis of the deposited data

Results flagged for a closer look

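Among 51 groups of 4 P1 libraries (1 gene in 1 class each), 3 held a library that stood apart from the others by more than Dixon's limit at 95%, which chance passes in about 1 of 20 groups. Fgf3 in IPCs was 108 CPM in replicate 4. Fgfr3 in row 3 DCs was 209 CPM in replicate 2. Fgf10 over all epithelial cells was 42.8 CPM in replicate 1.

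The difference between IHCs and OHCs in Fgf8 changed with age by a direct test of the change, by 2.20 from E16 to P1, by 0.97 from P1 to P7 and by 3.17 from E16 to P7. The OHC level at E16 and P1 rests on the 50 and 18 cells described above, and their part in the change was not tested.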

How the results depend on the processing

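Of the values of single FGF genes recomputed under the alternatives, other than the widened classes, 2562 stayed on the same side of the threshold, called or not. Another 150 lost a call and 38 gained one, and 0 changed direction with a call in either fit. A value called in neither fit counted as unchanged even if its direction changed. Of 28 pairs of a gene and an age that reached 50 CPM, the highest class was the same in 22 at resolution 1, where the E14 prosensory and lateral KO classes and the non-lateral prosensory one of E16 were not named, in 22 with cells gated one by one, where some classes held 5 to 10 cells in a library, in 27 without cells of more than 3000 genes and in 28 with summed UMIs. Counts of called FGF genes stayed at 3 for the E14 prosensory groups, or 4 with the non-lateral class widened, and at 2 for P7 IHCs against OHCs in every alternative that gave a value. The count for P1 IHCs against OHCs was 3, and 2 without cells of more than 3000 genes. With cells gated one by one it was 1 in place of 2 for E16 IHCs against OHCs and 0 in place of 1 for row 3 against other DCs. With summed UMIs, at resolution 1, or with the lateral KO widened, it was 4 in place of 3 for inner phalangeal cells against the lateral KO, and with the DCs and IPCs widened it was 2 in place of 1 for IPCs against DCs.

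Leaving out 1 library gave 3 to 3 for P1 IHCs against OHCs, 2 to 2 for E16, 6 to 6 for hair cells against SCs, 1 to 1 for row 3, 1 to 2 for IPCs, 3 to 3 for inner phalangeal cells, 146 to 157 (of 154) for classes against all other cells and 14 to 27 (of 20) between ages. Without the replicate block the counts of all called genes rose from 102 to 116 for E14 and fell elsewhere, from 1259 to 243 for P1 IHCs against OHCs, 255 to 56 for E16, 1209 to 492 for P7, 201 to 51 for row 3, 793 to 288 for IPCs and 1628 to 614 for inner phalangeal cells. Between ages, for comparisons that share at least 2 replicate numbers, 11 calls became 17 with a replicate block. The numbers do not pair the libraries, and the block also left out the libraries with no partner, so the effects of the block and of those libraries cannot be told apart.

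Counts of all called genes also moved by over 1.5 times elsewhere. For E14 they were 102, and 260 with no filter, 342 with summed UMIs and 197 without cells of more than 3000 genes. For P1 IHCs against OHCs they were 654 with no filter, 735 with the gate and 520 without the large cells. For E16 they were 90 with a pseudocount of 1 CPM, 62 with the gate, and 117 and 151 without replicate 2 or 3. For P7 they were 497 with the gate, for row 3 they were 113 with a pseudocount of 1 CPM and 119, 133 and 123 without replicates 1, 3 and 4, and with no filter they were 352 for IPCs and 926 for inner phalangeal cells. The causes were not tested.

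Leaving out a library within E14 or P7, E14 prosensory groups at resolution 1 or with the gate, and IPCs or inner phalangeal cells with the gate gave no value. The precision is limited by 2 libraries at E14 and P7, by classes of 27 to 95 cells such as the P7 row 3 DCs and the E16 IHCs, and by genes with less than 1 UMI per cell.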

Other observations

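The genes whose mean log2 levels over the 39 class profiles were most like those of each FGF gene, by Pearson's correlation among 7712 genes, are given as a description. For Fgf8 they were Fam19a3 (0.931), Dlk2 (0.907) and the neurofilament gene Nefl (0.906). For Fgf3 they were Dok5 (0.857), Wfdc12 (0.839) and Sp5 (0.808), and for Fgf10 they were Rabgap1l (0.814), Moxd1 (0.744) and Slc16a3 (0.744). For Fgf20 they were Slc22a3 (0.755), Fat3 (0.745) and Rnf165 (0.738).

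Among the receptors, Fgfr3 was most like Prox1 (0.888), Sash1 (0.820) and Fzd9 (0.818), of which Prox1 and Fzd9 were also markers used to name classes. Fgfr1 was most like Mdk (0.720), Slbp (0.720) and Tpbg (0.718), Fgfr2 like Cgnl1 (0.844), Rbpms (0.836) and Tbx3 (0.822), and Fgfrl1 like Wnt7a (0.807), Siah1a (0.804) and Slitrk6 (0.799). The profiles share libraries and ages.

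Cells that took no class name still held FGF genes. At P1 they averaged 42.0 CPM of Fgf10, 166 CPM of Fgfr1 and 12.1 CPM of Fgf3. Named classes held 8.52% of the Fgf10 UMIs at P7, against 97.2% at E16.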
